A study of Mus musculus with 12 samples.

Results

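TC2Ras tumors that grew together with adipose stromal cells (ASC) in mice drinking inorganic arsenic (iAs) were compared with TC2Ras tumors that had neither. TC2Ras is a mouse prostate cancer line with constitutive Ras signaling, ASC are multipotent stromal cells of fat that can join the tumor stroma, and iAs is a contaminant of drinking water. Mice of all groups first lived on low-arsenic AIN-76A chow and Milli-Q water, then received TC2Ras cells under the skin of both flanks, and the left and right tumor of each mouse were pooled at day 21. The 3 ASC_As300 tumors (labelled ASC300) held 1% ASC-GFP cells among the implanted cells and grew in mice given 300 ppb iAs, and the 3 Control tumors (labelled Control1) grew from TC2Ras cells alone at 0 ppb iAs. The ASC-GFP cells were primary cells from male transgenic C57BL/6 mice that express GFP, and the strain, sex and age of the implanted mice are not given in the sources used here. The other 6 of the 12 tumors, 3 ASC tumors (1% ASC, 0 ppb iAs) and 3 As300 tumors (labelled A300; no ASC, 300 ppb iAs), entered the same model and give reference levels. The labels name stromal cells of fat as the cell type of every library, also of those without ASC, while the protocols describe excised tumors, and the libraries are read here as whole tumors.

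The comparison covered 20818 of the 55401 genes in the deposited count table, those that passed a filter on low counts. A level is given as TMM-scaled CPM, the field's depth-normalized unit for counts (it divides each count by the total of its tumor times the TMM factor). A change is the log2 fold change of ASC_As300 over Control, tested with edgeR's quasi-likelihood F test. The value after ± is an approximate standard error (SE), the size of the change divided by the square root of F. The p-values were adjusted over all 20818 genes by the Benjamini-Hochberg method. A gene was called where the adjusted p was below 0.05 and the change at least 1.5-fold, and "rose", "fell", "called" and "did not pass" below refer to edgeR unless DESeq2, a second count test run on the same tumors, is named. Total counts of the 6 tumors were 45721042 to 52924862 (39157647 to 55168642 over all 12). Control replicate 1 stood apart on the first principal component (17.27% of the variance), at 101.79 against -64.88 to 22.53 in the other 11 tumors, and it held 302.3 CPM of B cell markers against 12.43 to 38.24 CPM elsewhere. Control replicate 2 held 2474 CPM of skeletal muscle markers against 6.489 to 175.3 CPM in the other 5 tumors compared. Each library is the combined tumor tissue of 1 mouse, so that p-values measure the spread between these mice. In whole tumors fewer cells of a type cannot be told apart from less RNA per cell.

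Interferon gamma (IFNγ), made mainly by T and NK cells, acts through JAK kinases on transcription factors of the STAT family. STAT factors and the factor IRF1 switch on genes of antigen presentation, of defense inside the cell and of T cell attraction, together with inhibitors such as PD-L1 and IDO1 that restrain T cells. In tumors this program is known both for exposing cancer cells to T cells and for limiting that response, and iAs is known for inducing oxidative stress and heat shock defenses.

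ASC_As300 tumors had higher expression of 163 genes and lower expression of 5 genes than Control tumors, 0.783% and 0.024% of the genes tested. For each of these 168 genes the 3 ASC_As300 tumors lay all above or all below the 3 Control tumors. Over all genes tested 13.5% had them all above and 12.2% all below. The calls rest on these same tumors, so the lack of overlap among called genes adds no support of its own. The genes called up changed by 2.38-fold at the median (1.51-fold to 45.6-fold), 34 of them by 4-fold or more and 13 by 8-fold or more, and 158 are protein coding. The median log2 fold change of all genes tested was -0.02, with 47.3% higher in ASC_As300. At an unadjusted p below 0.05 in edgeR, with no minimum of the fold change, 1812 of the 20818 genes were higher and 1353 lower. These are the background for the counts at an unadjusted p given for single lists below. When 1 of the 6 tumors was left out, the number called up lay between 88, in the fit lacking ASC_As300 replicate 3, and 199, in the fit lacking Control replicate 1. It was 102 and 109 in the fits lacking Control replicate 2 and 3, and 134 and 103 in those lacking ASC_As300 replicate 1 and 2. In all 6 of these fits 84 of the 163 remained called, and none of the 5 called down did (0 to 6 genes were called down).

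**Figure D1:**
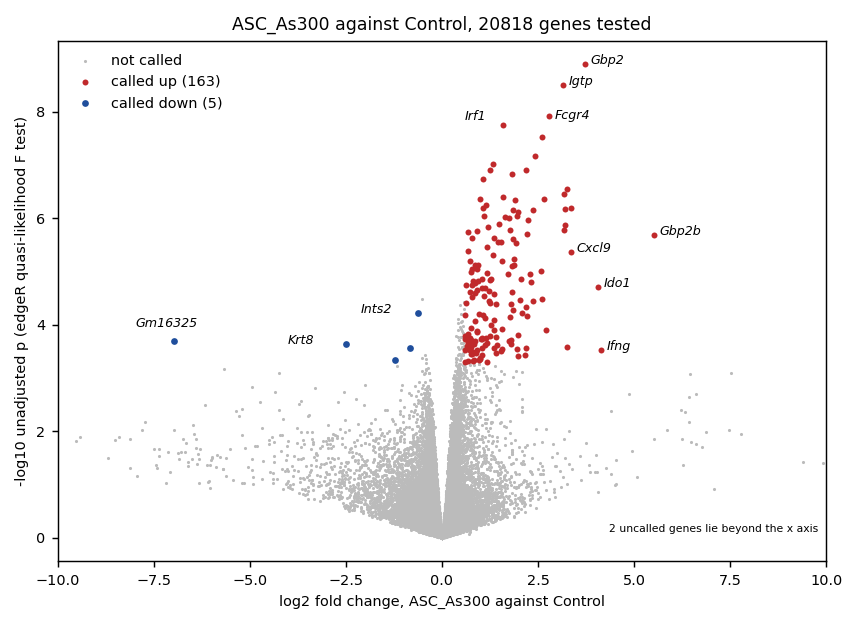
Each point is 1 of 20818 genes, with the log2 fold change of ASC_As300 over Control on the x axis and -log10 of the unadjusted p on the y axis; red marks the 163 genes called up and blue the 5 called down, and 2 uncalled genes lie beyond the x axis. The calls sit almost entirely on the right, with Gbp2 at the smallest p and, among the genes called up, Gbp2b at the widest change, 5.51.

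The guanylate-binding proteins (GBPs), large GTPases that attack the vacuoles of pathogens, were among the genes with the widest changes. Of 11 GBP genes tested, 8 rose, and for 11 of 11 every ASC_As300 tumor lay above every Control tumor, with a median log2 fold change of 2.05. Gbp2 was at 34.6, 25.4 and 20.8 CPM in Control and at 308, 395 and 360.02 CPM in ASC_As300 (3.72 ± 0.23, adjusted p 2.7e-05). The lowest ASC_As300 tumor was far above the highest Control tumor. Gbp2b was at 0.496, 0.518 and 0.108 CPM in Control and at 18.6, 11.4 and 21.9 CPM in ASC_As300 (5.51 ± 0.67, adjusted p 0.00115), which rests on 24, 27 and 5 counts in Control. Gbp3 was at 21.6, 19.6 and 12.8 CPM in Control and at 100.02, 106 and 124 CPM in ASC_As300 (2.61 ± 0.22, adjusted p 0.000127). Gbp4, Gbp5, Gbp6 and Gbp7 rose by 2.30, 2.05, 2.28 and 1.84 on the log2 scale, and Gbp8 by 1.74 (adjusted p 0.0289), a call that was lost when ASC_As300 replicate 1, 2 or 3 or Control replicate 2 or 3 was left out (adjusted p up to 0.116). Gbp9 (0.81 ± 0.29), Gbp10 (1.63 ± 0.57) and Gbp11 (1.61 ± 0.81) did not pass, though DESeq2 called Gbp10. GBP genes are close paralogs and how reads were split among them is not stated, which makes single values less certain than the group.

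The immunity-related GTPases (IRGs), smaller GTPases of the same defense that IFNγ induces, moved alongside. Of 8 tested, 7 rose, with a median log2 fold change of 2.77. Igtp was at 21.3, 15.4 and 11.2 CPM in Control and at 118, 149 and 155 CPM in ASC_As300 (3.14 ± 0.21, adjusted p 3.26e-05). Tgtp1 was at 10.8, 6.18 and 4.49 CPM against 58.6, 71.4 and 75.2 CPM (3.25 ± 0.33, adjusted p 0.000494), and its near-identical neighbor Tgtp2 rose by 3.17 ± 0.37. Iigp1 was at 25.6, 16.5 and 12.8 CPM against 149, 163 and 181 CPM (3.17 ± 0.32, adjusted p 0.000554). The groups were widely apart for each of these. Irgm1 and Irgm2, regulators of the other IRGs, rose by 2.18 ± 0.20 and 2.41 ± 0.21, and in the reference annotation Irgm2 overlaps Igtp, so that reads may be shared. Gm4951 rose by 2.08 ± 0.35, lost when ASC_As300 replicate 3 or Control replicate 2 or 3 was left out (adjusted p up to 0.0645). Irgq, the exception, was at 20.6, 24 and 21.7 CPM in Control and 24.1, 19.8 and 22.7 CPM in ASC_As300, with overlapping groups. Gm12250, an IRG gene outside the list, was at 3.18, 2.8 and 1.24 CPM against 14.2, 15.6 and 15.9 CPM (2.66 ± 0.28, adjusted p 0.000564).

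The promoters of the genes with the smallest p are shown because STAT and IRF factors are known to bind short DNA motifs. Each sequence is the 250 bases before the transcription start, 5′ to 3′ on the strand of the gene, from RefSeq on build GRCm38.p6, for the 6 called genes with the smallest p that hold either motif there. Capitals mark TTCNNNGAA, the gamma-activated site bound by STAT dimers, and GAAANNGAA or its reverse complement, the core of the interferon-stimulated response element bound by IRF factors.
Gbp2, chr3:142620413-142620662, plus strand: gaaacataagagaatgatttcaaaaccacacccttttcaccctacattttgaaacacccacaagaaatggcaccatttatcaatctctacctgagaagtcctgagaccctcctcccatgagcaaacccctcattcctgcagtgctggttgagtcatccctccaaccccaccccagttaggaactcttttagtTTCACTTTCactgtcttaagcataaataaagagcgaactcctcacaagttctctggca
Igtp, chr11:58199306-58199555, plus strand: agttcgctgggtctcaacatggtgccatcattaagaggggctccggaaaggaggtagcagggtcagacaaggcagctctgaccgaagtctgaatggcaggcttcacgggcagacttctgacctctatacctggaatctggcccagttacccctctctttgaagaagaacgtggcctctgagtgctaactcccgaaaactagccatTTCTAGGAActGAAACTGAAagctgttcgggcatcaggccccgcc
Irgm2, chr11:58214727-58214976, plus strand: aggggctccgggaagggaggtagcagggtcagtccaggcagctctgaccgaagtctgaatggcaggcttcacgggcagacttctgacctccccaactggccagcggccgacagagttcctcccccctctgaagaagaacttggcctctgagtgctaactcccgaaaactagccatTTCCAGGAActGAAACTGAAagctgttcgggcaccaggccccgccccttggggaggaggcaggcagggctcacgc
Gbp3, chr3:142559794-142560043, plus strand: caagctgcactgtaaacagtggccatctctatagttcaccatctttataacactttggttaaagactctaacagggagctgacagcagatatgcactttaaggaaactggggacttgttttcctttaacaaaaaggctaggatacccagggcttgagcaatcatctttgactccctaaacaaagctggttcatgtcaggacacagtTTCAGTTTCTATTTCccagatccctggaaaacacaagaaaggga
Irf1, chr11:53769764-53770013, plus strand: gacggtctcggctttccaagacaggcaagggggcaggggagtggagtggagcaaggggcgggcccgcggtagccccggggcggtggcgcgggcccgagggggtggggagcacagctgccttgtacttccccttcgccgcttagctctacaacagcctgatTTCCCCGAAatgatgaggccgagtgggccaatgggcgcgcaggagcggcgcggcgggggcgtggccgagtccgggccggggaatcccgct
Fcgr4, chr1:171018676-171018925, plus strand: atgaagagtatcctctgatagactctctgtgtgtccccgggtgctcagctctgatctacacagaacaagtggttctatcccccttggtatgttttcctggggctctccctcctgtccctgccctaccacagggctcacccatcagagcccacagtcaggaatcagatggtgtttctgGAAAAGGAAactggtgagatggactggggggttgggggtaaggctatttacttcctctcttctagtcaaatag
Igtp and Irgm2 each held both motifs close together, with first bases at -45 and -34 from the start in Igtp and at -75 and -64 in Irgm2, and the response element core read GAAACTGAA in both. Gbp2 held 1 response element core on the opposite strand, at -58, Gbp3 held 2 that share letters, at -44 and -38, and Fcgr4 held 1 at -73. Irf1 held a gamma-activated site at -90. The windows of the 2 genes called down with the smallest p were printed without requiring a motif, and they held neither. Either motif was in 13.8% of the windows of genes tested (250 bases before and 50 after a start). The 2 windows therefore cannot show a contrast with the 6 above, which were picked for holding a motif.
Ints2, chr11:86257595-86257844, minus strand: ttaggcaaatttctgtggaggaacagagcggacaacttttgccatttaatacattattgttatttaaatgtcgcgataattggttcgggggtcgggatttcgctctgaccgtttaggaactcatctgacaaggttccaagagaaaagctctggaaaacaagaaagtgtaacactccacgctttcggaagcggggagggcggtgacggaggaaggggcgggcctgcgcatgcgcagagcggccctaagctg
Gm16325, chr3:146641682-146641931, plus strand: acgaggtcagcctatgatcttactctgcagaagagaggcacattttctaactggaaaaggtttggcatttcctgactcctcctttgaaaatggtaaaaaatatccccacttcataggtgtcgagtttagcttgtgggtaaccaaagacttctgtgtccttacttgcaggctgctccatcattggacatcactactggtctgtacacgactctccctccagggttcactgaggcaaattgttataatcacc
The RefSeq table held 139 windows of 250 bases before and 50 after a start for 119 of the genes called up, some with several starts. The response element core was in 35.3% of these windows, in 7.57% of the 16400 windows of genes tested and in 8.56% of all 32851 windows. The gamma-activated site was in 18%, 7.01% and 8.3%. The antioxidant response element TGACNNNGC, which NRF2 binds, was in 11.5%, 14% and 12.4%, and the NF-kB site GGGNNTTTC in 7.19%, 4.36% and 4.36%. Both strands were searched, the first 2 motifs can overlap, and a match describes letters and is not a bound site.

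The gene of IFNγ itself was measured at low counts. Ifng was at 0.103, 0.23 and 0.0868 CPM in Control and at 1.86, 2.21 and 3.52 CPM in ASC_As300 (4.14 ± 0.83, adjusted p 0.0347). These values rest on 5, 12 and 4 counts in Control, at or below the floor of 12 counts used here (4 counts, the step of the low counts in the table, times 3, covering counting error only), and on 100, 112 and 178 counts in ASC_As300. Against that floor in each Control tumor, ASC_As300 was at least 10.3-fold higher, and the fitted value above is not a bound. The groups did not overlap, but the call was lost in each of the 6 fits that left out 1 of these tumors (adjusted p up to 0.155). Il15ra, which presents IL-15 to T and NK cells, was at 9.63, 9.94 and 9.11 CPM against 17.2, 23.7 and 23.5 CPM (1.17 ± 0.16, adjusted p 0.00367). Il12rb1, a receptor chain for the IFNγ inducer IL-12, rose by 1.98 ± 0.41 (adjusted p 0.0409), lost when ASC_As300 replicate 2 or 3 or Control replicate 2 or 3 was left out (adjusted p up to 0.166). Il18rap (1.08 ± 0.24, adjusted p 0.0574), Ebi3 (0.78 ± 0.24) and Il15 (0.62 ± 0.21) did not pass, though DESeq2 called Il18rap and Ebi3. In all, 3 of 18 members rose (5 by DESeq2) and none fell, with a median log2 fold change of 0.48, and 1 was called without ASC_As300 replicate 2 or 3 or without Control replicate 2 or 3.

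Of 24 genes of JAK kinases, STAT and IRF factors and SOCS inhibitors, 6 rose and none fell, with a median log2 fold change of 0.21. Irf1 was at 68.1, 50.7 and 53.5 CPM in Control and at 155, 188 and 173 CPM in ASC_As300 (1.58 ± 0.12, adjusted p 9.34e-05). Batf2, a partner of IRF1 in macrophages, was at 1.88, 1.71 and 0.803 CPM against 12, 12.5 and 15.8 CPM (3.19 ± 0.37, adjusted p 0.000904). All ASC_As300 tumors were well above Control for both factors. Socs1, which shuts JAK kinases off, rose by 1.46 ± 0.18 (adjusted p 0.00137). Stat2, of the type I interferon response (0.87 ± 0.17, adjusted p 0.0289), and Irf5, an inducer of cytokines (0.72 ± 0.14, adjusted p 0.029), also rose. Stat2 was lost when ASC_As300 replicate 2 or 3 or Control replicate 1 or 3 was left out (adjusted p up to 0.133), and Irf5 when ASC_As300 replicate 2 or 3 or Control replicate 2 or 3 was left out (adjusted p up to 0.11). Socs3 had an adjusted p of 0.00934 but a change of 0.48 ± 0.08, below 1.5-fold, and Irf9 (0.56 ± 0.12) and Irf7 (0.98 ± 0.28) did not pass, though DESeq2 called Irf7.

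**Figure D2:**
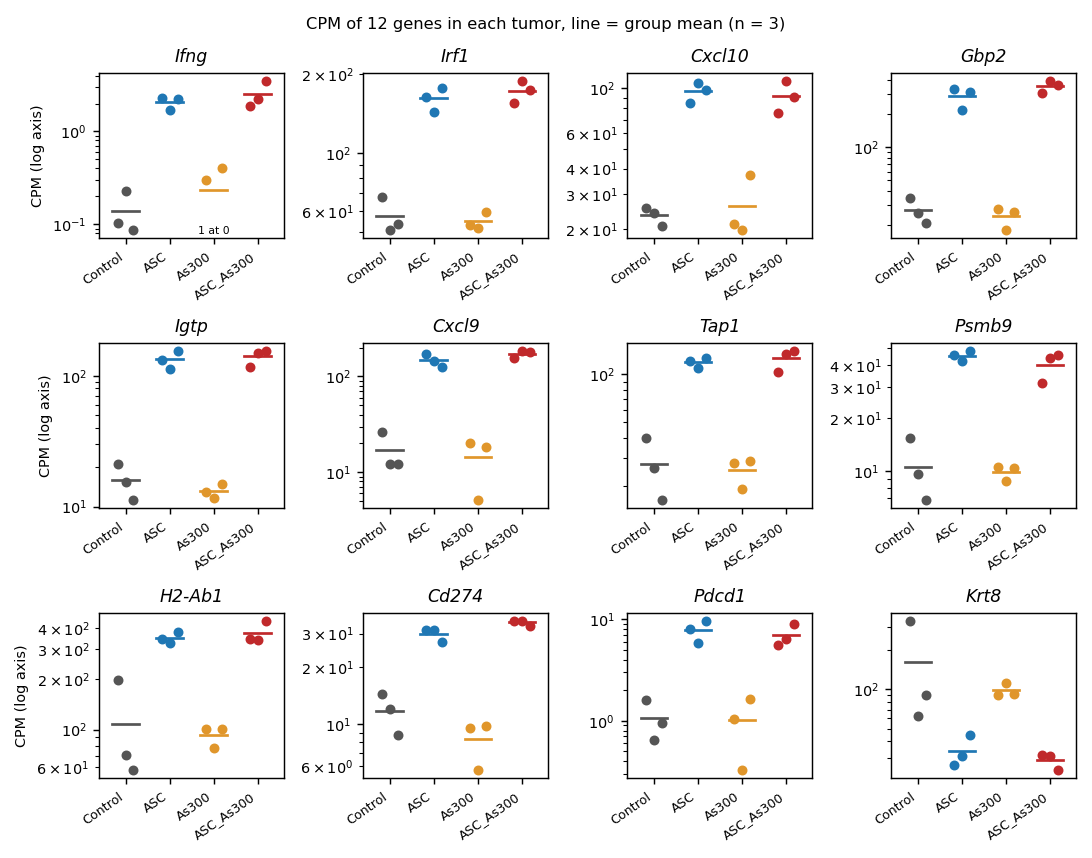
CPM on a log axis for 12 genes, with 1 point a tumor, the 4 groups on the x axis and a line at the mean of each group (n = 3). For each gene except Krt8 the 3 ASC_As300 tumors sit above the 3 Control tumors, and for Krt8 they sit below; 1 As300 tumor had no count of Ifng.

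Antiviral genes, which type I and type II interferons both induce, rose in part. Of 34 tested, 12 rose and none fell, 33 were higher in ASC_As300, 26 had all ASC_As300 tumors above Control, and the median log2 fold change was 0.88. Zbp1, a sensor of nucleic acids, was at 18, 18.1 and 10.1 CPM in Control and at 45, 64.7 and 72.9 CPM in ASC_As300 (1.98 ± 0.22, adjusted p 0.000652). Xaf1, which favors apoptosis, rose by 1.49 ± 0.17, Bst2, which tethers budding virions, by 1.21 ± 0.19, and Samhd1, which depletes nucleotides, by 0.72 ± 0.11. Ifi35 rose by 0.99 ± 0.10, and the close paralogs Apol9a and Apol9b by 1.80 ± 0.29 and 1.81 ± 0.28. The oligoadenylate synthetase family genes Oasl2 and Oas3 rose by 1.25 ± 0.20 and 1.44 ± 0.28, and Rtp4, Dhx58 and Ifitm3 by 1.15 ± 0.22, 1.05 ± 0.22 and 0.72 ± 0.14. Ifitm3 was lost when any 1 of the 6 tumors was left out (adjusted p up to 0.183), Dhx58 when ASC_As300 replicate 2 or 3 or Control replicate 1, 2 or 3 was left out (adjusted p up to 0.176), Oas3 when ASC_As300 replicate 1, 2 or 3 or Control replicate 2 or 3 was left out (adjusted p up to 0.126) and Rtp4 when ASC_As300 replicate 2 or 3 or Control replicate 2 or 3 was left out (adjusted p up to 0.137). Apol9a was lost when ASC_As300 replicate 3 or Control replicate 3 was left out (adjusted p up to 0.0586) and Oasl2 when ASC_As300 replicate 3 was left out (adjusted p up to 0.0528). Isg15, a ubiquitin-like modifier, did not pass, at 13.7, 15 and 13.3 CPM against 22.5, 32.9 and 37 CPM (1.14 ± 0.26, adjusted p 0.0677), nor did Oas1a (0.96 ± 0.21) and Trim21 (0.97 ± 0.21), though DESeq2 called these 3 and 19 of the 34 in all. The fits lacking ASC_As300 replicate 3 or Control replicate 3 called 6 and 7 of these genes.

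Of 9 genes of ADP-ribosyltransferases and their partner Dtx3l, 5 rose, with a median log2 fold change of 1.10. Dtx3l, a ubiquitin ligase that pairs with PARP9, was at 19.8, 20.7 and 17.9 CPM in Control and at 42.7, 50.8 and 53.4 CPM in ASC_As300 (1.33 ± 0.12, adjusted p 0.00029), and Parp9 rose by 1.13 ± 0.12. Parp10, Parp12 and Parp14 rose by 1.10 ± 0.12, 1.11 ± 0.17 and 1.23 ± 0.20, whereas Parp11 (0.69 ± 0.17), Parp8 (0.08 ± 0.10) and Parp2 (-0.14 ± 0.11) did not pass, though DESeq2 called Parp11. Of 21 genes of DNA sensing, inflammasomes and cell death, 2 rose by edgeR and 8 by DESeq2, with a median log2 fold change of 0.54. Il18bp, the decoy of the IFNγ inducer IL-18, was at 8.51, 5.87 and 6.53 CPM against 17.8, 21.7 and 23 CPM (1.58 ± 0.16, adjusted p 0.000564). Nlrc5, the transactivator of MHC class I genes, was at 21.2, 16.6 and 7.68 CPM against 46.3, 51.9 and 56.5 CPM (1.76 ± 0.30, adjusted p 0.0143), and it was lost when ASC_As300 replicate 3 or Control replicate 2 was left out (adjusted p up to 0.0711). Mlkl and Gsdmd, executioners of necroptosis and pyroptosis, had adjusted p of 0.0165 and 0.0238 but changes of 0.48 ± 0.09 and 0.54 ± 0.10, below 1.5-fold.

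MHC class I, which shows peptides from inside the cell to CD8 T cells, was higher from peptide transport to the surface molecule. Of 11 genes of classical class I molecules and peptide loading, 8 rose, also in each of the 6 fits without 1 tumor, and the median log2 fold change was 1.17. The peptide transporter Tap1 was at 39.9, 25.8 and 16.3 CPM in Control and at 103, 134 and 141 CPM in ASC_As300 (2.21 ± 0.27, adjusted p 0.00113), and Tap2 rose by 1.83 ± 0.25. The loading factors Tapbp and Tapbpl rose by 1.26 ± 0.12 and 1.36 ± 0.17, and the trimming peptidase Erap1 by 0.78 ± 0.11. H2-K1 was at 358, 263 and 173 CPM against 619, 689 and 727 CPM (1.36 ± 0.21, adjusted p 0.00691), H2-D1 rose by 1.17 ± 0.15 and the light chain B2m by 0.90 ± 0.11. The general chaperones Calr (0.32 ± 0.08) and Pdia3 (0.12 ± 0.07) did not pass, and Canx lay at 502, 562 and 583 CPM in Control and 523, 543 and 524 CPM in ASC_As300, with overlapping groups. Of 14 nonclassical class I genes, H2-T22 (1.07 ± 0.10, adjusted p 0.000354), H2-T23, whose product binds the NK receptor NKG2A (1.19 ± 0.14, adjusted p 0.000964), and H2-Q1 (1.27 ± 0.23, adjusted p 0.0191) rose, the last being lost when ASC_As300 replicate 2 or 3 or Control replicate 2 or 3 was left out (adjusted p up to 0.106). In all, 8 of the 14 were higher in ASC_As300, and the median log2 fold change was 0.59, or 0.25 without Control replicate 3. H2-Q2 (-6.69), H2-Q10 (-0.81) and Cd1d1 (-0.66) were among those lower, with overlapping groups. Without Control replicate 1, 6 of the 14 were called up, DESeq2 called 5, and class I genes are similar enough that reads may be shared among them.

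Proteasome genes were called in the immune form. Of 6 immunoproteasome genes, which make peptides suited to class I, 4 rose, also in each of the 6 fits without 1 tumor. Psmb9 was at 15.4, 9.65 and 6.86 CPM in Control and at 31.7, 43.7 and 45.7 CPM in ASC_As300 (1.93 ± 0.24, adjusted p 0.00137). Psmb8 and Psmb10 rose by 1.86 ± 0.25 and 1.82 ± 0.17 and the activator subunit Psme1 by 0.93 ± 0.14, while Psme2 (1.00 ± 0.30) and the assembly factor Pomp (0.28 ± 0.08) did not pass. None of 14 constitutive proteasome genes was called by edgeR or DESeq2 (6 were higher and 0 lower at an unadjusted p below 0.05 in edgeR), with a median log2 fold change of 0.18. Psmb5, the constitutive counterpart of Psmb8, was at 96.1, 99 and 101 CPM against 119, 133 and 137 CPM (0.39 ± 0.14, adjusted p 0.217), without overlap.

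MHC class II, with which antigen-presenting cells show peptides to CD4 T cells, was higher for 5 of 12 genes. H2-Ab1 was at 197, 71 and 57.4 CPM in Control and at 346, 343 and 445 CPM in ASC_As300 (1.80 ± 0.35, adjusted p 0.0308). H2-Eb1 rose by 1.81 ± 0.35 (adjusted p 0.0283), the peptide loaders H2-DMa and H2-DMb1 by 1.42 ± 0.23 and 1.36 ± 0.24, and the protease Ctss, which trims the invariant chain, by 0.91 ± 0.13. H2-Ab1 and H2-Eb1 were both lost when any of these tumors except Control replicate 1 was left out (adjusted p up to 0.133 and 0.125), H2-DMb1 when ASC_As300 replicate 2 or 3 or Control replicate 2 was left out (adjusted p up to 0.076) and H2-DMa when ASC_As300 replicate 3 or Control replicate 2 was left out (adjusted p up to 0.0529). H2-Aa (1.54 ± 0.36, adjusted p 0.0741) and the invariant chain Cd74 (1.49 ± 0.36, adjusted p 0.0772) had all ASC_As300 tumors above Control but did not pass by edgeR, while DESeq2 called both. Another 4 genes of the list had log2 fold changes below 0 and overlapping groups. Of these, H2-Ob and H2-Oa, which form a modulator of peptide loading in B cells, were at 34, 0.748 and 1.56 CPM and 9.67, 0 and 0.477 CPM in Control and at 2.01, 1.5 and 1.54 CPM and 0.782, 0.948 and 0.989 CPM in ASC_As300. H2-Eb2 was at 5.89, 0.729 and 0.325 CPM against 0.223, 0.731 and 0.356 CPM and H2-DMb2 at 26, 4.66 and 3.04 CPM against 4.76, 6.3 and 7 CPM, and 2 of the 12 were lower at an unadjusted p below 0.05. For each of these 11 genes Control replicate 1, the tumor with B cell markers at 302.3 CPM, was the highest Control tumor, and the part of those cells in the result was not tested. Without Control replicate 1, 7 class II genes were called up and the median log2 fold change was 1.89 instead of 1.13. The fits lacking ASC_As300 replicate 1, 2 or 3 called 3, 2 and 1 of these genes, and those lacking Control replicate 2 or 3 called 1 and 3.

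Many of these genes are neighbors. In the order of the reference annotation, 8 stretches held at least 3 genes called up with at most 5 tested genes between neighbors, 34 genes in all. The number of stretches expected for 163 of 20818 genes at random positions was not computed. Several stretches hold close paralogs, among which reads may be shared. The class II region of chromosome 17 had 8 called genes of 12 tested, H2-DMa, H2-DMb1, Psmb9, Tap1, Psmb8, Tap2, H2-Ab1 and H2-Eb1. On chromosome 3, Gbp5, Gbp7, Gbp3, Gbp2b and Gbp2 were 5 of 5, and on chromosome 5, Gbp8, Gbp4 and Gbp6 were 3 of 6. Chromosome 11 had 2 IRG stretches, the first with Irgm1, Gm12185, Tgtp1, Tgtp2 and Ifi47 (5 of 11) and the second with Gm12250, Igtp and Irgm2 (3 of 3). The others were Apol6, Apol9a, Apol10b and Apol9b on chromosome 15 (4 of 12), Parp14, Dtx3l and Parp9 on chromosome 16 (3 of 4), and C1qb, C1qc and C1qa on chromosome 4 (3 of 3).

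Among chemokines that draw T cells, Cxcl9 was at 26.5, 12.1 and 12.1 CPM in Control and at 154, 186 and 178 CPM in ASC_As300 (3.36 ± 0.43, adjusted p 0.00195). Cxcl10 was at 25.6, 24.1 and 20.7 CPM against 75.3, 109 and 90.5 CPM (1.97 ± 0.22, adjusted p 0.000732). Both are ligands of CXCR3 on activated T and NK cells, and the receptor gene Cxcr3 was at 2.56, 1.63 and 0.933 CPM against 2.12, 1.82 and 1.5 CPM, with overlapping groups. Cxcl16 rose by 0.67 ± 0.12 (adjusted p 0.0249), lost when ASC_As300 replicate 2 or 3 or Control replicate 2 or 3 was left out (adjusted p up to 0.0989). The gene of its receptor, Cxcr6, was at 1.84, 1.94 and 0.586 CPM against 6.55, 3.08 and 7.06 CPM (1.93 ± 0.43, adjusted p 0.0614) and did not pass by edgeR, while DESeq2 called it. Of 17 CC chemokines and receptors, 2 rose and none fell, 10 were higher in ASC_As300, and the median log2 fold change was 0.11. Dropping ASC_As300 replicate 2 moved that median to -0.17, and dropping Control replicate 3 moved it to -0.04. Of the 6 fits without 1 tumor, only that lacking Control replicate 2 called any of these genes (1 up). Ccr3 (-1.80) and Ccl17 (-0.88) had all ASC_As300 tumors below Control, and Ccl24 (-0.95) and Ccl22 (-0.63) were lower with overlapping groups. Among the 2 that rose was Ccl4, which draws macrophages and T cells (1.95 ± 0.39, adjusted p 0.0345). Ccl4 was lost without any 1 of the 6 tumors (adjusted p up to 0.176). Ccl3 did not pass, at 2.46, 1.98 and 2.45 CPM against 6.31, 6.48 and 11.8 CPM (1.84 ± 0.43, adjusted p 0.0692), nor did Ccl2 (0.58 ± 0.15) and Ccl5 (0.74 ± 0.23), though DESeq2 called Ccl3 and Ccl5.

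Of 23 genes of inhibitory checkpoints, of tryptophan and arginine use and of other immune regulators, 9 rose and none fell, 2 of the 9 being the protease inhibitor genes Serpina3f and Serpina3g, and 16 had all ASC_As300 tumors above Control. Cd274, which encodes PD-L1, was at 14.5, 12 and 8.72 CPM in Control and at 35.1, 35 and 33.1 CPM in ASC_As300 (1.55 ± 0.21, adjusted p 0.00264). Pdcd1, which encodes its receptor PD-1, was at 1.59, 0.652 and 0.955 CPM against 5.56, 6.3 and 9.02 CPM (2.71 ± 0.49, adjusted p 0.0218), and the T cell inhibitor Lag3 at 2.87, 1.77 and 1.48 CPM against 8.51, 6.72 and 9.08 CPM (1.99 ± 0.37, adjusted p 0.0249). Ligand and receptors were higher in the same tumors, with no overlap. Havcr2, which encodes TIM-3, rose by 1.06 ± 0.18, and was lost when ASC_As300 replicate 1 or 3 or Control replicate 2 was left out (adjusted p up to 0.0885). Pdcd1 was lost when ASC_As300 replicate 2 or 3 or Control replicate 2 or 3 was left out (adjusted p up to 0.106), and Lag3 when ASC_As300 replicate 1 or 3 or Control replicate 2 or 3 was left out (adjusted p up to 0.114). Ido1, which turns tryptophan into kynurenine, was at 0.289, 0.269 and 0.282 CPM in Control and at 5.08, 3.67 and 5.42 CPM in ASC_As300 (4.06 ± 0.61, adjusted p 0.00565), from 14, 14 and 13 counts in Control. Ido2 rose by 2.57 ± 0.36, Serpina3f and Serpina3g by 3.35 ± 0.36 and 2.60 ± 0.41, and the secreted suppressor Fgl2 by 1.56 ± 0.28, lost when ASC_As300 replicate 2 or 3 or Control replicate 1 or 3 was left out (adjusted p up to 0.11). Tigit (0.79 ± 0.27), Tox (1.76 ± 0.54) and Lgals9 (0.58 ± 0.14) did not pass, though DESeq2 called Tox. Without ASC_As300 replicate 3, 5 of the 23 were called up.

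For the lymphocytes' own genes edgeR made few calls. No gene of 18 for the T cell receptor and its coreceptors was called by edgeR or DESeq2 (1 was higher and 0 lower at an unadjusted p below 0.05 in edgeR). Cd8a was at 15.8, 2.32 and 1.74 CPM in Control and at 14.9, 8.67 and 20.8 CPM in ASC_As300 (1.16 ± 0.66), and Cd3e at 7.21, 1.06 and 0.325 CPM against 4.93, 3.87 and 7.04 CPM (0.88 ± 0.77). In both, Control replicate 1 reached the ASC_As300 tumors and the other Control tumors lay below them, and without Control replicate 1, 7 of the 18 were called up and the median log2 fold change was 1.41 instead of 0.35. Of 14 granule genes of killer cells, 9 were higher in ASC_As300, with a median log2 fold change of 0.41. Gzmd (-0.18), Gzme (-0.24), Gzmf (-0.34), Gzmg (-0.45) and Gzmm (-0.75) had log2 fold changes below 0, with overlapping groups. Gzmb rose, at 7.71, 5.03 and 6.88 CPM against 13, 23.4 and 13.2 CPM (1.34 ± 0.25, adjusted p 0.0219). It was lost when ASC_As300 replicate 2 or Control replicate 2 or 3 was left out (adjusted p up to 0.094). Nkg7, of granule membranes, was at 4.71, 2.13 and 1.08 CPM against 8.25, 7.49 and 16.1 CPM, and neither it nor Prf1 (1.27 ± 0.39) or Gzma (1.62 ± 0.51) passed by edgeR, while DESeq2 called all 3. Of 21 NK receptor genes, Klrc1, which encodes NKG2A, was at 1.2, 0.844 and 1.19 CPM against 5.45, 4.6 and 6.79 CPM (2.38 ± 0.38, adjusted p 0.00862), and Klrb1b rose by 1.25 ± 0.24 (adjusted p 0.0259). Klrc1 was lost without ASC_As300 replicate 3 or Control replicate 2 (adjusted p 0.0529), and Klrb1b without any 1 of the 6 tumors (up to 0.0991), and DESeq2 called 4 of the 21. Of 13 genes of regulatory T cells and costimulation none was called by edgeR or DESeq2 (1 higher and 0 lower at an unadjusted p below 0.05), and 1 was called up without Control replicate 1.

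Of 21 macrophage and monocyte markers, 6 rose and none fell, 18 were higher in ASC_As300, and the median log2 fold change was 0.36. Mertk had all ASC_As300 tumors below Control (-0.28), and Mrc1 (-0.46) and Cd163 (-0.89) were lower with overlapping groups. Fcgr4, an activating Fc receptor of monocytes and macrophages, was at 9.13, 8.1 and 6.79 CPM in Control and at 47, 52.1 and 65.8 CPM in ASC_As300 (2.78 ± 0.21, adjusted p 8.41e-05), the third smallest p of the genes called up. Fcgr1, the high-affinity Fc receptor, rose by 0.98 ± 0.17, and Acod1, which makes itaconate in activated macrophages, by 3.26 ± 0.65. Acod1 was lost without any 1 of the 6 tumors (adjusted p up to 0.106), and Fcgr1 when ASC_As300 replicate 2 or 3 or Control replicate 3 was left out (adjusted p up to 0.0748). The complement genes C1qa, C1qb and C1qc, made mostly by macrophages, rose by 0.76 ± 0.11, 0.86 ± 0.13 and 0.78 ± 0.12, with C1qa at 183, 190.4 and 159 CPM against 275, 314 and 312 CPM (adjusted p 0.00362). The defining markers were not called, with Adgre1 at 57, 69 and 41.6 CPM against 80.3, 91 and 68.3 CPM and Csf1r at 186, 189 and 123 CPM against 189.6, 227 and 166 CPM, both with overlapping groups, and Cd68 at 69.7, 82 and 66.4 CPM against 88.5, 86.4 and 83.1 CPM. The summed level of the list was 1826 to 2343 CPM in Control and 2544 to 3087 CPM in ASC_As300, and its part in the results above was not tested. Of 13 dendritic cell markers, Itgax (1.13 ± 0.22, adjusted p 0.0318) and Bst2 rose, and Itgax was lost when ASC_As300 replicate 1, 2 or 3 or Control replicate 2 or 3 was left out (adjusted p up to 0.124). Xcr1, Clec9a and Flt3, which mark dendritic cells more narrowly, had overlapping groups, and the summed level of the list was 298.8 to 330.2 CPM in Control and 412.8 to 509.6 CPM in ASC_As300. That sum was also above Control in every ASC tumor (442.7 to 558.6 CPM) and every As300 tumor (369 to 441.7 CPM). No marker of 13 for neutrophils and of 10 for mast cells was called by edgeR (0 and 4 higher, 2 and 0 lower at an unadjusted p below 0.05), while DESeq2 called 1 neutrophil gene down and 1 mast cell gene up.

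**Figure D3:**
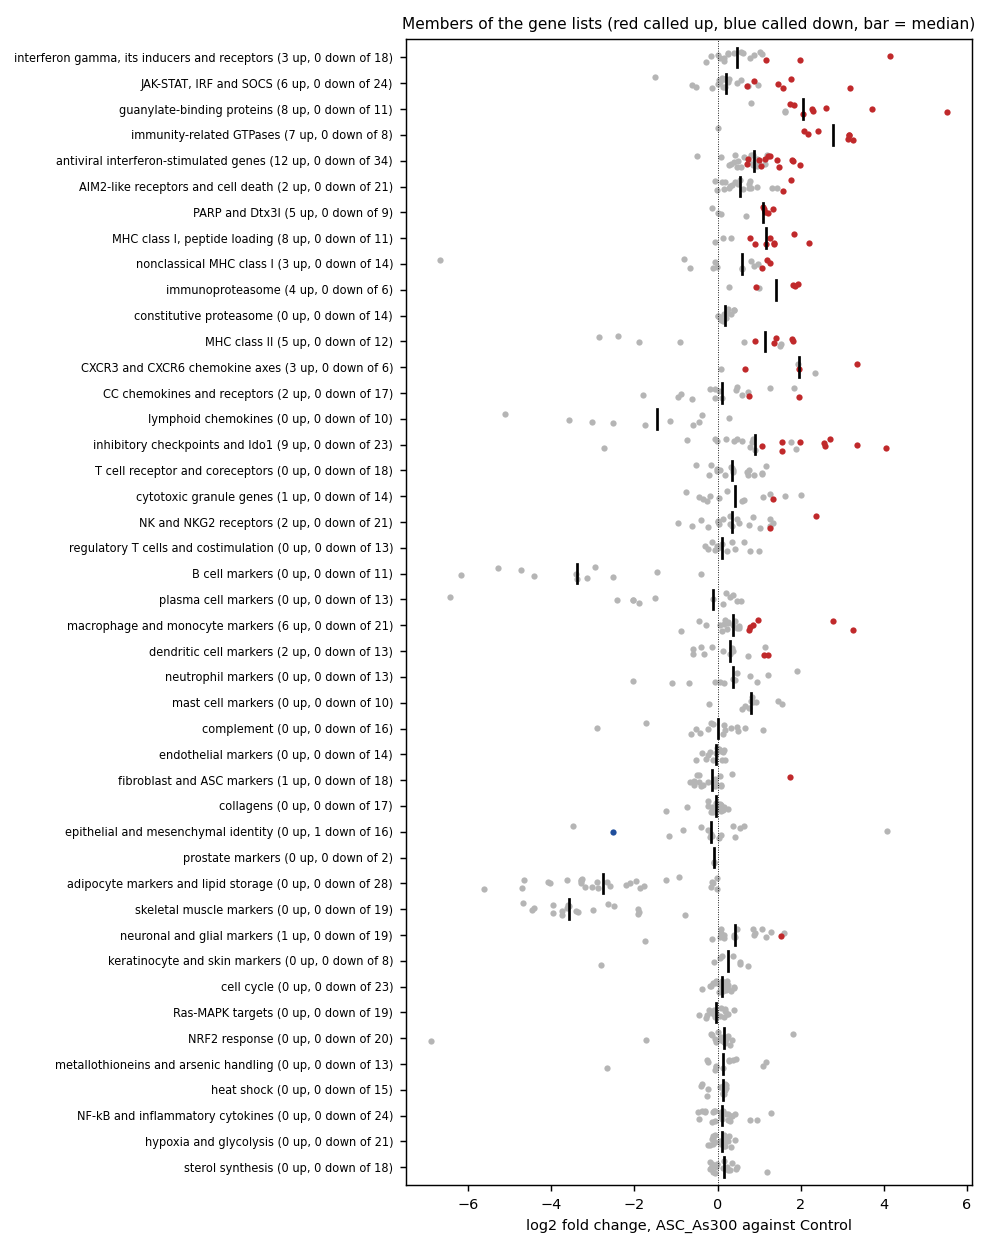
Log2 fold change of ASC_As300 over Control (x axis) for each tested member of 44 gene lists (rows), with red for genes called up, blue for Krt8, called down, gray for genes not called and a black bar at the median of each list. The GBP and IRG rows hold the medians farthest to the right, 2.05 and 2.77, and the adipocyte, muscle and B cell rows lie to the left with no called member.

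Several known effectors of inflammation were not called by edgeR. Il1b was at 6.78, 7.27 and 9.81 CPM in Control and at 15.5, 18.5 and 12.1 CPM in ASC_As300 (0.95 ± 0.31, adjusted p 0.191). Nos2, which makes nitric oxide, was at 5.15, 6.52 and 3.15 CPM against 10.6, 7.82 and 9.36 CPM (0.91 ± 0.48), and Arg1, which consumes arginine, at 35.3, 56.4 and 43.3 CPM against 62.8, 69.9 and 52.9 CPM (0.46 ± 0.27). Tgfb1 was at 81.2, 73.8 and 84.1 CPM against 97.4, 99.8 and 99.3 CPM (0.31 ± 0.08, adjusted p 0.121), and Tnf had a change of 1.29 ± 0.40 (adjusted p 0.171). For these genes except Arg1 all ASC_As300 tumors lay above Control, and none passed the test in edgeR. Of 24 genes of the NF-kB and cytokine list, edgeR called none (7 higher and 0 lower at an unadjusted p below 0.05) and DESeq2 called 2 up, Il1b and Tnf.

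Genes known to respond to arsenic and other stress gave no call. Over 20 NRF2 targets, 13 metallothionein and arsenic-handling genes and 15 heat shock genes the median log2 fold changes were 0.15, 0.14 and 0.14, and neither edgeR nor DESeq2 called a gene (2, 3 and 0 higher and 2, 0 and 3 lower at an unadjusted p below 0.05 in edgeR). Mt2, a metal-binding metallothionein, was at 109, 135 and 162 CPM in Control and at 203, 151 and 199 CPM in ASC_As300 (0.45 ± 0.20), with overlapping groups. Gsto1, which reduces arsenic species, gave 0.27 ± 0.10, Keap1, the inhibitor of NRF2, 0.34 ± 0.09, and the chaperone Hsp90aa1 -0.36 ± 0.14, none past the threshold. Neither tool called any of 21 genes of hypoxia and glycolysis, 18 of sterol synthesis, 23 of the cell cycle or 19 of the Ras-MAPK pathway, whose medians were 0.10, 0.15, 0.12 and -0.03 (4, 5, 5 and 1 higher and 0, 0, 1 and 0 lower at an unadjusted p below 0.05 in edgeR).

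Of the epithelial and mesenchymal genes, Krt8, a keratin of simple epithelia, fell, at 337, 62.1 and 89.9 CPM in Control and 31.1, 30.8 and 24.1 CPM in ASC_As300 (-2.51 ± 0.49, adjusted p 0.0309). The highest value was that of Control replicate 1, without which the log2 fold change was -1.40, and the call was lost without any 1 ASC_As300 tumor (adjusted p up to 0.176). Its partner keratin Krt18 was at 19.7, 0.71 and 1.15 CPM against 0.279, 1.11 and 0.534 CPM, with overlapping groups, and the mesenchymal filament gene Vim at 2095, 2409 and 2560.4 CPM against 2948, 3159.8 and 3054 CPM (0.37 ± 0.13, adjusted p 0.213). Of 10 prostate markers, 8 were at or below 12 counts in all 6 tumors, Pbsn among them. Ly6a, which encodes the stem cell antigen Sca-1 and stands in the fibroblast and ASC list, was at 73.3, 74.7 and 53.5 CPM against 201, 211 and 266 CPM (1.75 ± 0.20, adjusted p 0.000737). The other genes of that list of 18 were not called by edgeR or DESeq2, 13 of the 18 had log2 fold changes below 0, and 4 were lower and 2 higher at an unadjusted p below 0.05. Lum, a matrix proteoglycan (-0.67 ± 0.26), Postn, a matrix protein of activated fibroblasts (-0.56 ± 0.18), and Fn1, fibronectin (-0.57 ± 0.19), had all ASC_As300 tumors below Control, while the receptor gene Pdgfra was at 78.6, 105 and 127 CPM against 91.4, 107 and 98.2 CPM and the surface gene Thy1 at 39.6, 29.6 and 27.3 CPM against 29.8, 39.9 and 31.4 CPM, both with overlapping groups. Neither edgeR nor DESeq2 called any of 17 collagens, 14 endothelial markers or 8 skin markers, with medians of -0.05, -0.03 and 0.24 (0, 0 and 0 higher and 1, 1 and 0 lower at an unadjusted p below 0.05 in edgeR). Of 16 further complement genes edgeR called none (3 higher, 1 lower) and DESeq2 1 up, and of 19 neuronal and glial genes Tubb3, a tubulin of neurons, rose (1.53 ± 0.19, adjusted p 0.00137), and DESeq2 called 2.

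The other 4 genes called down are in none of the lists. Ints2, a subunit of the Integrator complex that processes small nuclear RNA, was at 45.3, 46.5 and 51.2 CPM in Control and 30.8, 33.2 and 29.6 CPM in ASC_As300 (-0.61 ± 0.10, adjusted p 0.013). Ovgp1, an oviduct glycoprotein, was at 8.91, 8.33 and 7.83 CPM against 4.75, 4.25 and 4.98 CPM (-0.84 ± 0.17, adjusted p 0.0338), and Gpr183, an oxysterol receptor of immune cells, at 9.92, 8.1 and 6.12 CPM against 3.03, 4.52 and 2.77 CPM (-1.22 ± 0.26, adjusted p 0.0467). Gm16325 had 15, 20 and 13 counts in Control and 0 in each ASC_As300 tumor, at least 1.4-fold lower against the floor of 12 counts a tumor, and DESeq2 gave it no adjusted p. Ints2 was lost when ASC_As300 replicate 1 or 3 or Control replicate 2 or 3 was left out (adjusted p up to 0.0986), and Gpr183 when ASC_As300 replicate 1 or 3 or Control replicate 1, 2 or 3 was left out (adjusted p up to 0.239). Ovgp1 and Gm16325 were lost without any 1 of the 6 tumors (adjusted p up to 0.152 and 0.114). In As300 tumors Ints2 was at 33.4, 28.9 and 32.2 CPM, close to ASC_As300, and Ovgp1 at 6.53, 7.38 and 8.9 CPM, above it.

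Adipocyte genes lay lower, and none was called. All 28 markers of adipocytes and lipid storage had a log2 fold change below 0, 19 of them without overlap of the groups, and the median was -2.77, yet edgeR called none (0 were higher and 15 lower at an unadjusted p below 0.05). Adipoq, the fat cell hormone adiponectin, was at 27.3, 18.5 and 11.2 CPM in Control and 0.149, 4.52 and 2.39 CPM in ASC_As300 (-3.02 ± 1.31, adjusted p 0.305), and Scd1, a fatty acid desaturase, at 678, 478 and 275 CPM against 108, 116 and 143 CPM (-1.96 ± 0.67, adjusted p 0.209). Plin1 and Plin4, coat proteins of lipid droplets, gave -3.28 ± 1.30 and -2.20 ± 0.78. The summed level of the list was 1107 to 2070 CPM in Control and 757.4 to 856.3 CPM in ASC_As300, and 3308 CPM in ASC replicate 2, a tumor that enters the shared estimate of the spread. ASC replicates 1 and 3, at 816.8 and 824.2 CPM, and the As300 tumors, at 686.3 to 909.9 CPM, were also below every Control tumor. A fit of only the 6 tumors compared called 8 of the 28 down, a fit without ASC replicate 2 called 5, and DESeq2 called 1.

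Markers of muscle and of B cells followed single tumors. The 19 skeletal muscle genes tested had a median log2 fold change of -3.57, and of 3.16 without Control replicate 2. Ckm, muscle creatine kinase, was at 0.0827, 211 and 0.456 CPM in Control and at 4.24, 8.93 and 0.435 CPM in ASC_As300. The 11 B cell markers had a median of -3.37, and of -0.17 without Control replicate 1. The median of 13 plasma cell genes was -0.10, or 1.54 without Control replicate 1, and that of 10 lymphoid chemokine genes -1.45, or -0.37 without it. By edgeR no gene of these 4 lists was called (2, 9, 1 and 5 lower and 0, 0, 1 and 1 higher at an unadjusted p below 0.05), and DESeq2 called 2 B cell genes and 1 lymphoid chemokine gene down.

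**Figure D4:**
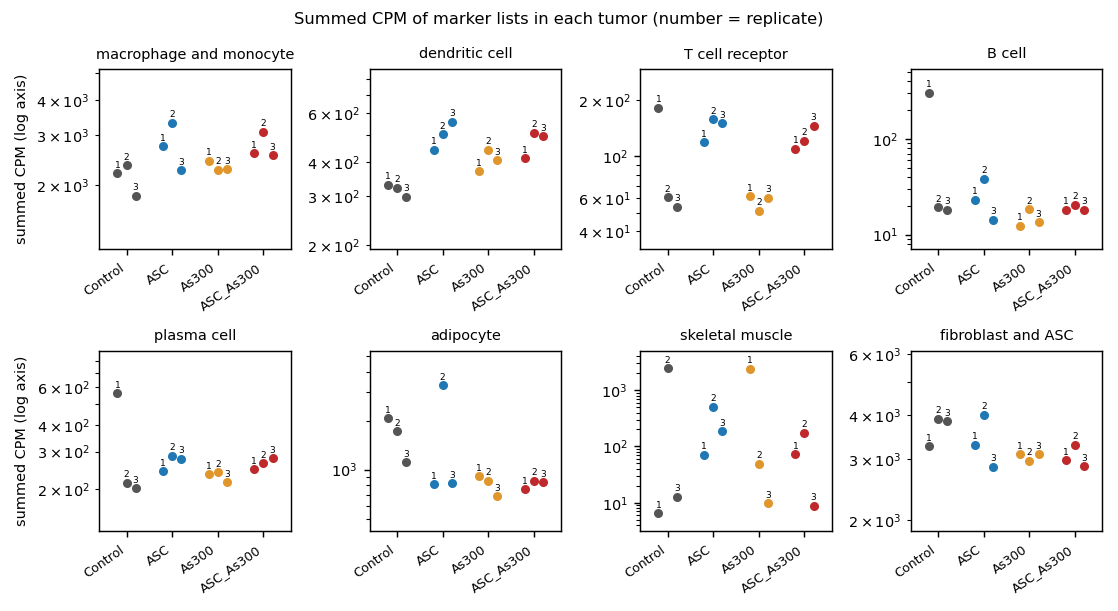
Summed CPM on a log axis of 8 marker lists in each of the 12 tumors, with the replicate number beside each point and the 4 groups on the x axis. Control 1 is high for B, plasma and T cell genes, Control 2 and As300 1 for skeletal muscle genes and ASC 2 for adipocyte genes. The 3 ASC_As300 tumors are above Control for the macrophage and dendritic cell lists, and for the dendritic cell list so are all ASC and As300 tumors.

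The ASC_As300 tumors were also set against each exposure alone, in the same model. Against ASC tumors no gene was called up or down, 0% in either direction by edgeR, with 307 higher and 362 lower at an unadjusted p below 0.05, and DESeq2 called 4 up and 6 down. Against As300 tumors 165 genes were called up (0.793%) and 13 down (0.0624%). These comparisons use the same 3 ASC_As300 tumors as the one with Control and are not independent of it. Gbp2 was at 331, 217 and 313 CPM in ASC tumors and at 27.8, 17.9 and 26.2 CPM in As300 tumors, with a log2 fold change of ASC_As300 of 0.30 ± 0.21 over ASC and 3.89 ± 0.24 over As300. Ifng was at 2.31, 1.72 and 2.24 CPM in ASC and at 0.3, 0 and 0.406 CPM in As300, and Cd274 at 31.4, 31.2 and 27 CPM and 9.53, 5.72 and 9.75 CPM. For all 3 genes the As300 tumors overlapped the Control tumors, and the ASC tumors overlapped the ASC_As300 tumors for Gbp2 and Ifng but lay below them for Cd274 (0.21 ± 0.20 over ASC). Of the 163 genes called up, Ido1 differed most from ASC, at 3.2, 2.41 and 1.24 CPM in ASC against 5.08, 3.67 and 5.42 CPM (1.05 ± 0.53), and it did not pass. Over these 163 genes the median log2 fold change was 0.05 over ASC and 1.22 over As300. The antiviral list had a median of -0.27 over ASC, with 3 of 34 higher in ASC_As300, and of 0.94 over As300. The adipocyte list gave -2.53 over ASC, where replicate 2 is high, and -0.50 over As300, with no call in either.

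**Figure D5:**
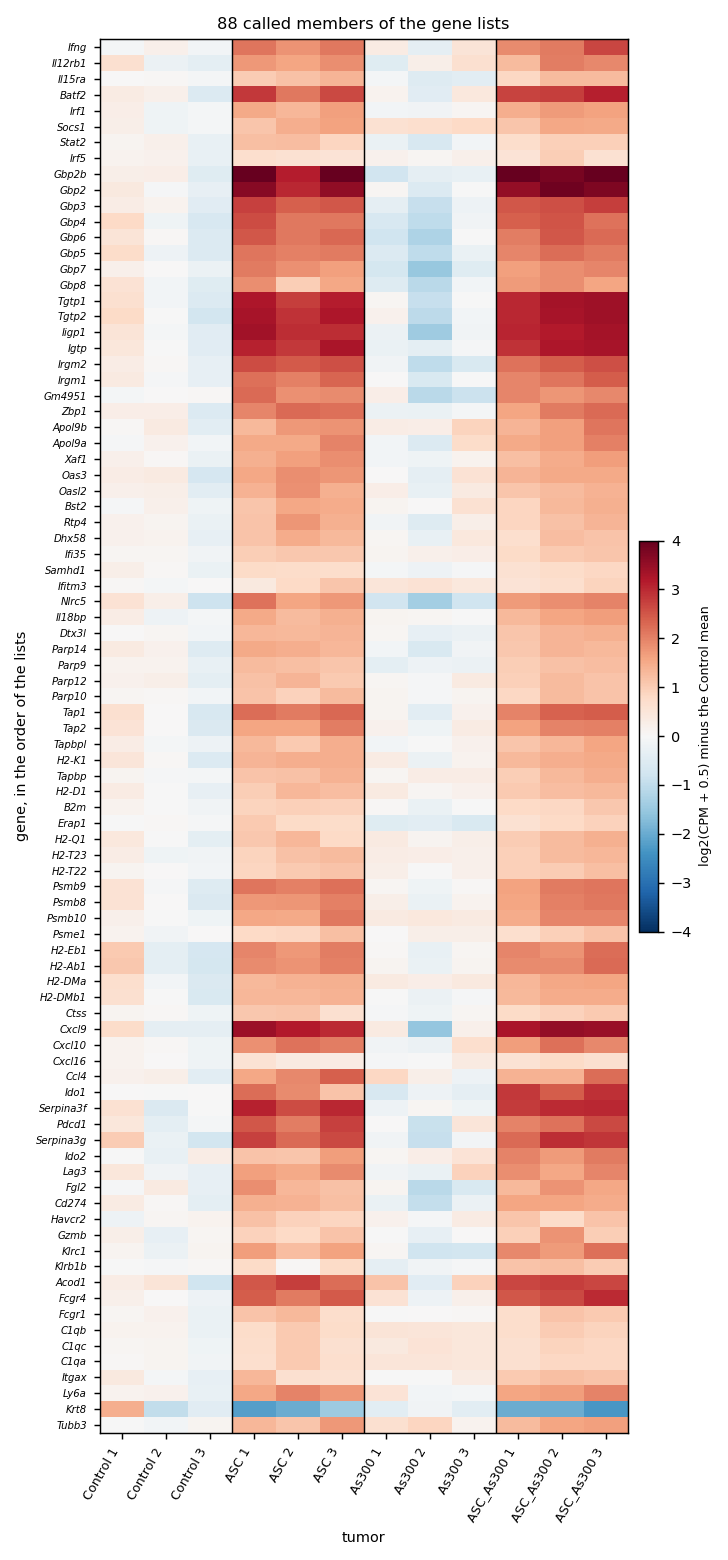
Log2(CPM + 0.5) minus the mean of Control for 88 called members of the gene lists (rows) in each of the 12 tumors (columns), on a color scale from -4 (blue) to 4 (red) whose end colors also stand for values beyond it. The ASC and ASC_As300 columns are red for nearly all rows and the As300 columns are mostly pale, with Krt8 in blue among the ASC and ASC_As300 tumors.

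Of the 163 genes called up against Control, 158 were also higher in ASC_As300 than in As300, and 111 were called up there too. Both comparisons share the ASC_As300 tumors. A few of the remaining genes were as high in As300 tumors, and those shown were chosen after their values were seen. Cyba, a subunit of the phagocyte oxidase, was at 109, 97.5 and 93.4 CPM in Control, 144, 154 and 171 CPM in ASC_As300 and 149, 182 and 163 CPM in As300 (log2 fold change of ASC_As300 over Control 0.65 ± 0.13 and over As300 -0.07 ± 0.13). Tspo, a mitochondrial membrane protein, gave 0.73 ± 0.15 over Control and -0.03 ± 0.15 over As300, and Cebpb, a factor of myeloid and fat cells, 0.75 ± 0.15 and -0.34 ± 0.15. Against Control, Cyba was lost when ASC_As300 replicate 1, 2 or 3 or Control replicate 2 or 3 was left out (adjusted p up to 0.169), Tspo when ASC_As300 replicate 2 or 3 or Control replicate 1, 2 or 3 was left out (adjusted p up to 0.178) and Cebpb when ASC_As300 replicate 1, 2 or 3 or Control replicate 2 or 3 was left out (adjusted p up to 0.144). C1qa was at 247, 249 and 243 CPM in As300, between Control and ASC_As300.

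Of the 163 genes called up, 89 are in the 44 lists and 74 in none. Of the latter, the following were also picked after their values were seen. Ube2l6 (1.63 ± 0.18), which conjugates ISG15, Nmi (0.74 ± 0.14), a partner of STAT factors, and Wars (0.69 ± 0.09), the tryptophanyl-tRNA synthetase, are known interferon targets, and Nmi was lost when ASC_As300 replicate 2 or 3 or Control replicate 1, 2 or 3 was left out (adjusted p up to 0.151). Slamf8 (2.02 ± 0.32), Lair1 (1.24 ± 0.18) and Clec12a (1.09 ± 0.17) encode surface proteins of myeloid cells, and Mpeg1 (0.85 ± 0.13) the pore-forming perforin-2 of macrophages. Spi1, which encodes the myeloid factor PU.1, rose by a small amount (0.60 ± 0.13, adjusted p 0.0495) and was lost when any 1 of the 6 tumors was left out (adjusted p up to 0.195). Fst, which encodes the activin antagonist follistatin, was at 9.01, 11.2 and 11.5 CPM in Control and 40.4, 32.3 and 42.3 CPM in ASC_As300 (1.86 ± 0.20, adjusted p 0.000635), without overlap. The adhesion gene Cadm1 rose by 1.87 ± 0.26, the cross-linking enzyme gene Tgm2 by 0.93 ± 0.13 and the collagenase gene Mmp13 by 1.41 ± 0.27, lost when ASC_As300 replicate 1, 2 or 3 or Control replicate 1 or 2 was left out (adjusted p up to 0.102).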

How the data were processed

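RNA of 12 tumors (poly(A) RNA, stranded TruSeq libraries, paired-end NovaSeq reads) was quantified by the authors, and 1 table of counts per gene was deposited, with whole numbers that are not normalized. The submitters' processing notes name cutadapt 1.1.0, HISAT2 2.0, StringTie 1.3.4, DESeq2 and edgeR. The study's methods describe alignment to the mouse genome, assembly and quantification with StringTie and Ballgown as FPKM. How the deposited whole-number counts were derived, the genome build and the use of strand are not given in the sources used here, the reads carry no molecular identifiers, and low counts pile up at multiples of 4 for a reason not given there.

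Here genes were filtered with filterByExpr, scaled by TMM and fitted in R 4.3.3 with edgeR 4.0.16 (limma 3.58.1) using 1 mean per group over all 12 tumors, with edgeR's quasi-likelihood test and Benjamini-Hochberg adjustment over 20818 genes. Calls needed an adjusted p below 0.05 and a 1.5-fold change. Total counts were 39157647 to 55168642, all columns were mapped to tumors by their names, and the steps were tested on simulated data. DESeq2 1.42.0, other size factors, filters, subsets of tumors, a replicate block and counts divided by 4 served as alternatives.

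The comparison, its gene lists and its named genes were chosen with earlier results of these data known. Named genes were the 15 genes called up with the smallest p, those called down, the 5 with the largest change, every called list member with up to 3 uncalled ones, 12 genes that the study discusses and the first 4 markers of a cell type; others are said to be picked after their values were seen. Symbols and gene order came from the reference annotation, and promoters from the RefSeq table of GRCm38.p6. Some items are not reported here.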

Additional observations from a re-analysis of the deposited data

How the results depend on the processing

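Direction held for all 95 called named genes under every alternative run, while 33 of 170 uncalled ones turned sign under some. All called genes had groups without overlap, so that refits of the same tumors could hardly turn their direction. No conclusion is drawn from this difference. Against Control (163 up, 5 down), DESeq2 called 317 up and 73 down, with the 163 among them. Unadjusted p-values below 0.05, in this paragraph always with the 1.5-fold minimum kept, gave 545 and 476. The number called down was 3 without a filter, 41 with only the 6 tumors compared and 9 with no minimum of the fold change. Leaving out 1 tumor gave 88 to 199 up and 0 to 15 down. Against ASC (0 and 0), DESeq2 gave 4 and 6, only the 6 tumors compared 1 up, unadjusted p-values 127 and 301, and leaving out 1 tumor 0 to 1 up and 0 to 1 down. Against As300 (165 and 13), DESeq2 gave 309 and 91, only the 6 tumors compared 42 down, unadjusted p-values 642 and 497, and leaving out 1 tumor 92 to 231 up and 1 to 46 down, the highest of both without Control replicate 1. The cause of these shifts was not tested.

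Deviations from the group means correlated between ASC_As300 and Control tumors at -0.0297, 0.1721 and 0.0649 for replicates 1, 2 and 3. Between tumors of different replicate numbers the correlations were -0.1759 to 0.1092. With 3 tumors a group these values cannot decide whether the replicate numbers pair the tumors. With the replicate block, 151 genes were called up (138 shared with the fit above) and 4 down (1 shared) against Control, and 6 down against As300. DESeq2 gave no adjusted p for 18496 of 33928 genes. With 3 tumors a group, Control replicate 1 high in lymphocyte genes, Control replicate 2 in muscle genes and ASC replicate 2 in fat genes, the part of tumor composition in the calls was not tested, and genes near the floor of 12 counts carry little information.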
